A study of Arabidopsis thaliana with 6 samples.

Results

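Messenger RNA of 54 cell cycle and DNA replication genes was compared between seedlings of the Arabidopsis thaliana mutant cog1-2D and of Col-0 wild type. The 54 genes, of 33617 in the deposited table, were chosen by function and locus: cyclins, cyclin-dependent kinases (CDKs), their KRP and SIAMESE-type inhibitors, E2F factors with RBR1 and WEE1, the MCM helicase, PCNA and activators of the anaphase-promoting complex. Each genotype had 3 libraries, numbered 0, 1 and 2, from untreated seedlings kept on MS medium at 23 °C under long days and 7 days of age. The mutant is an activation-tagging line: enhancers carried by a tag in the genome raise transcription of neighbouring genes, in cog1-2D that of COG1, a Dof-type transcription factor. The labels do not say whether replicates came from separate cultures, nor how many seedlings each library holds, so p-values measure only the spread between these samples. In whole seedlings, fewer dividing cells and less RNA per dividing cell cannot be told apart.

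Plant cells divide in meristems and young organ primordia under the control of CDKs, which are active only when bound to a cyclin. D-type cyclins with the A-type kinase bring cells from G1 into S phase by phosphorylating RBR1, which frees E2F factors to switch on replication genes such as those of the MCM helicase and PCNA. A-type and B-type cyclins with the plant-specific B-type kinases act from S phase through mitosis, and the anaphase-promoting complex (APC/C) then marks cyclins for destruction. KRP and SIAMESE-type proteins bind and inhibit the kinase complexes, and many plant cells later leave division for endoreduplication, in which DNA is copied without mitosis.

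The libraries held 10575945 to 11202122 fragments assigned to genes, and 10347 genes passed the filter on low counts. Of the 54 genes, 28 lie on the minus strand of the genome, and these had 0 to 9 fragments each over all 6 libraries, 5 of them none. The 26 on the plus strand had 16 to 10298, and 25 of them reached the 60 fragments over 6 libraries that counted as measured. The margin was wide: the lowest measured gene, CYCA2;1, had 164 fragments and the highest unmeasured one, the plus-strand gene CYCD7;1, had 16. COG1 lies on the minus strand too and was counted at 0, 3 and 3 fragments in cog1-2D and at 0, 0 and 0 in wild type, so it gave no usable check of the labels. Kits and counting are described with the processing, and the strand setting of the counting is not given in the sources used here. Not measured were the B2-type kinase genes CDKB2;1 and CDKB2;2, the cyclin genes CYCA1;1, CYCA2;2, CYCB1;1, CYCB1;2, CYCB1;3, CYCB2;3, CYCB2;4, CYCD2;1, CYCD3;3, CYCD4;1, CYCD4;2 and CYCD6;1, and KRP1, KRP3, KRP6, KRP7, SIM, SMR1, RBR1, MCM3 to MCM6, PCNA2, CDC20.1 and CCS52B, so nothing is said of their levels.

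Expression of 11 of the 25 measured genes differed between the genotypes, with 2 higher and 9 lower in cog1-2D (edgeR quasi-likelihood test, Benjamini-Hochberg adjusted p under 0.05 over all genes tested). All 3 measured B-type cyclins fell, with the largest fall among the members in CYCB1;4, whose level in cog1-2D was 0.429 of that in wild type. The replication helicase genes MCM2 and MCM7, the mitotic kinase gene CDKB1;2, the cyclin genes CYCA3;1 and CYCD3;1 and the APC/C activator gene CCS52A1 also fell. The 2 that rose were the A-type kinase gene CDKA;1 and the kinase inhibitor gene KRP2. The called share was 44% of the members, against 36.3% of all tested genes. Lower members made up 36%, against 20% of all tested genes, and higher members 8%, against 16.3%. The log2 fold change was below 0 in 21 of 25 members with a median of -0.22, and below 0 in 49.6% of all tested genes with a median of 0.00. Counts scaled to a common library size did not overlap between the genotypes for 15 of the 25 members, 13 lower and 2 higher. Over all tested genes the share was 49.8%, with 25.5% lower and 24.3% higher. The count of lower members was 4 without cog1-2D replicate 1 and 5 without wild type replicate 0, while the 2 higher members were called under every alternative tried.

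**Figure D1:**
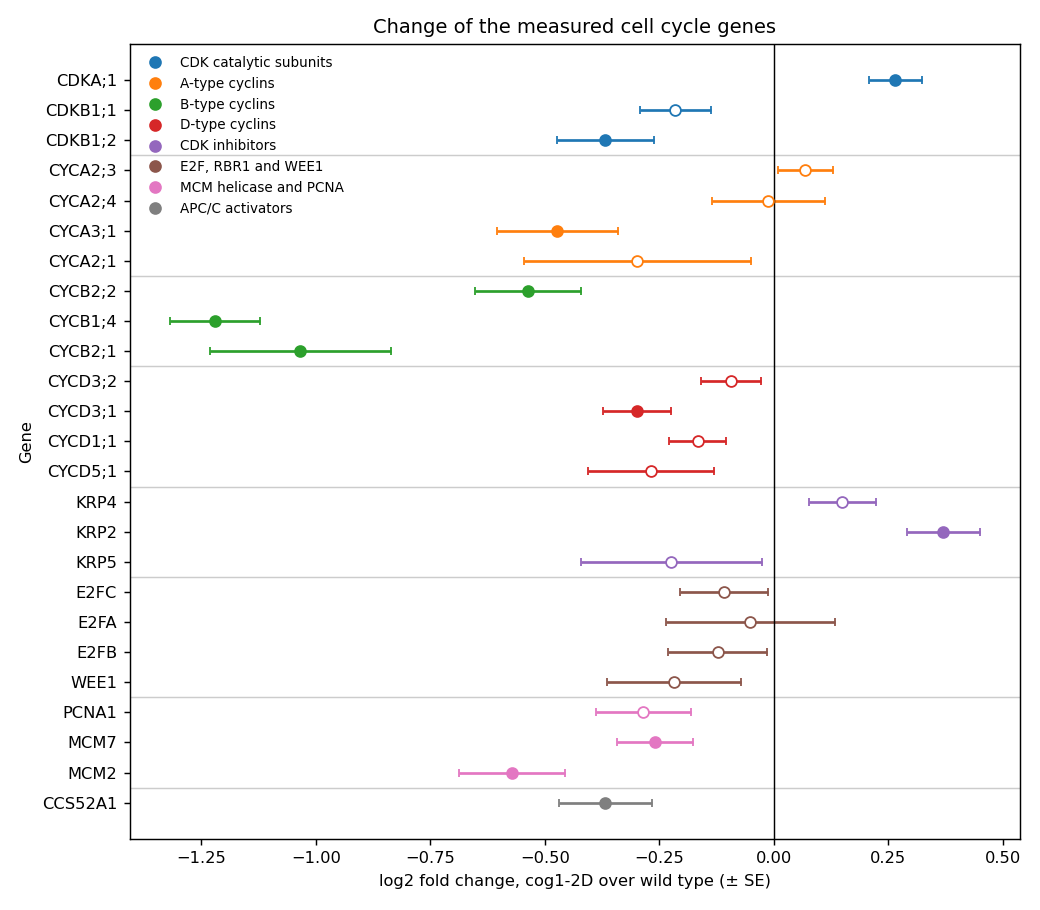
Log2 fold change, cog1-2D relative to wild type (horizontal axis), for the 25 measured cell cycle genes, grouped by role, with bars of 1 standard error from 3 libraries per genotype. Filled points passed the test at an adjusted p under 0.05 and open points did not. CYCB1;4 and CYCB2;1 lie farthest to the left, at -1.22 and -1.03, and only CDKA;1 and KRP2 have filled points to the right of 0.

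Levels per gene length are given as FPKM, fragments scaled by gene length and by library, as deposited. The measured members spanned a mean of 1.64 FPKM for CYCA2;1 to 121.5 for the D-type cyclin CYCD3;2. The next highest were the A-type kinase gene at 74.4, CYCD3;1 at 43.9 and PCNA1 at 43.8, and the last pair was not separable within the spread of their libraries. Only 8 of the 25 exceeded the median FPKM of the tested genes, 20.6.

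**Figure D2:**
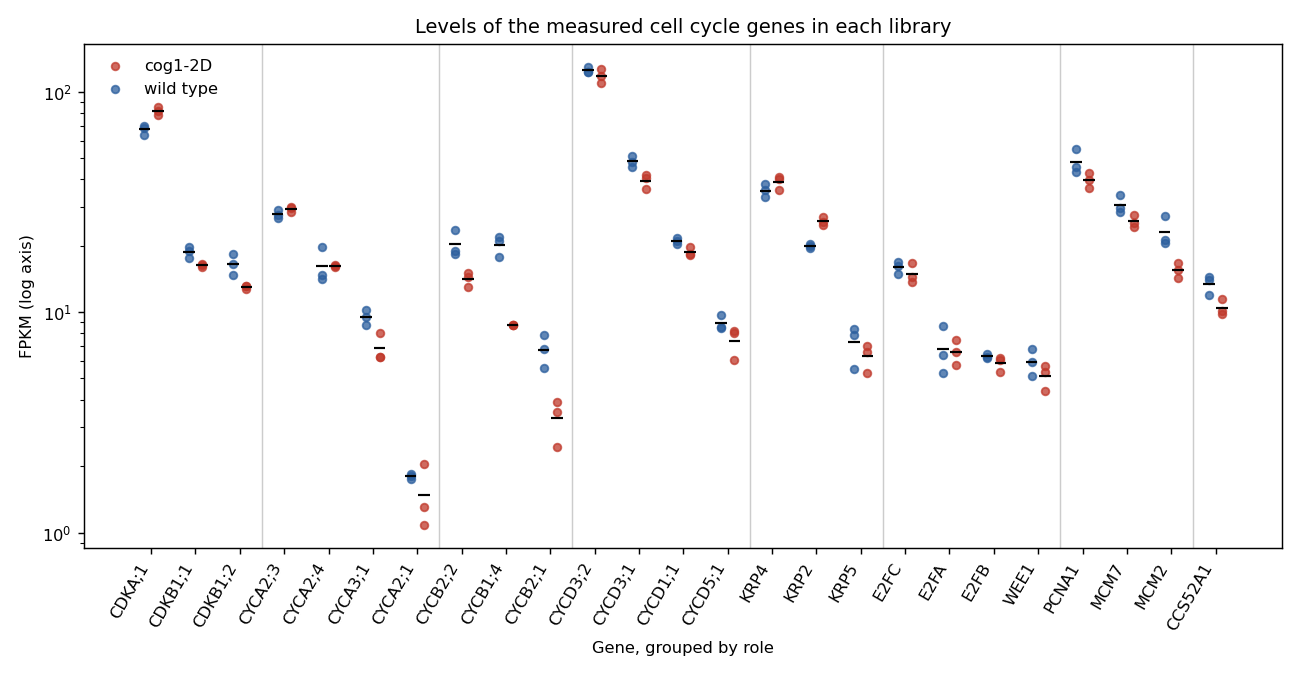
FPKM in each library (logarithmic axis) of the 25 measured cell cycle genes, ordered by role. Points are single libraries, 3 of cog1-2D and 3 of wild type, and short black lines are means. CYCB1;4 and CYCB2;1 separate most clearly between the genotypes, while most A-type cyclins and E2F genes have interleaved points.

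Among the kinases, CDKA;1 (AT3G48750, chr3:18071454-18074641 in TAIR10.1, plus strand), which acts at both the entry into S phase and the entry into mitosis, stood at 84.9, 81.4 and 78.1 FPKM in cog1-2D replicates 0, 1 and 2. In wild type it stood at 63.5, 70.0 and 68.7. Every mutant library was above every wild type library. It rose, with a log2 fold change of 0.27 ± 0.06 (SE, n = 3 per genotype, edgeR adjusted p = 0.00668). CDKB1;2 (AT2G38620, chr2:16152473-16154086), a B-type kinase that acts around mitosis, went the other way, with 12.8, 13.1 and 13.1 FPKM in cog1-2D and 18.4, 14.8 and 16.6 in wild type. The mutant libraries were almost level while the wild type libraries were spread, without overlap. The fall was -0.37 ± 0.11 on the log2 scale (edgeR adjusted p = 0.0252). This call was lost in 6 of 15 alternatives, with an adjusted p of 0.0651, 0.0661 and 0.0643 without cog1-2D replicates 0, 1 and 2, of 0.0731 and 0.0539 without wild type replicates 0 and 2, and of 0.0998 in DESeq2. Its close relative AT3G54180 (CDKB1;1) had 16.4, 16.0 and 16.5 FPKM in cog1-2D and 19.0, 19.7 and 17.6 in wild type, also without overlap. CDKB1;1 did not pass (log2 fold change -0.21 ± 0.08, edgeR adjusted p = 0.0582). It passed in 1 of 15 alternatives, without wild type replicate 2 (adjusted p 0.04995), and over all 15 the adjusted p reached 0.309. Genes on the opposite strand overlap both B1-type kinase genes, by 71 and 281 bases, and had 7 and 2 fragments over the 6 libraries. They lie on the minus strand, where genes are almost without fragments in every library, so these counts do not show their level. Other measured members have such neighbours too, among them MCM7 (437 bases) and KRP4 (926 bases). The part of these neighbours in the results was not tested.

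Of the 4 measured A-type cyclins, 1 fell. CYCA3;1 (AT5G43080, chr5:17292952-17295024), of the A3 group that is active around S phase, had 8.08, 6.23 and 6.27 FPKM in cog1-2D and 10.2, 9.49 and 8.72 in wild type. The highest mutant library lay just below the lowest wild type one. The log2 fold change was -0.47 ± 0.13 (edgeR adjusted p = 0.0214). The adjusted p was 0.0823 and 0.0720 without cog1-2D replicates 1 and 2, 0.0635 without wild type replicate 0 and 0.0655 in DESeq2, and the call was lost in those 4 of 15 alternatives. The A2 cyclins, which pair with B-type kinases, did not pass. AT1G15570 (CYCA2;3) had 29.5, 28.5 and 29.8 FPKM against 28.9, 27.6 and 26.8 in wild type, and AT1G80370 (CYCA2;4) had 16.2, 16.3 and 16.1 against 19.7, 14.7 and 14.2. Both had overlapping groups, with log2 fold changes of 0.07 ± 0.06 and -0.01 ± 0.12. The low-level AT5G25380 (CYCA2;1) ranged from 1.08 to 2.04 FPKM over all 6 libraries.

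All of the measured B-type cyclins, which drive mitosis, fell. CYCB1;4 (AT2G26760, chr2:11401118-11403433) had 8.74, 8.76 and 8.75 FPKM in cog1-2D and 21.9, 17.8 and 21.1 in wild type. The 3 mutant libraries were nearly equal, and the groups lay far apart. It fell by 57.1%, a log2 fold change of -1.22 ± 0.10 (edgeR adjusted p = 1.91e-05). CYCB2;1 (AT2G17620, chr2:7664055-7666522), at a lower level, had 3.54, 2.45 and 3.92 FPKM in cog1-2D and 7.88, 6.77 and 5.57 in wild type. Again no library of one genotype reached the other. Its log2 fold change was -1.03 ± 0.20 (edgeR adjusted p = 0.00348). CYCB2;2 (AT4G35620, chr4:16901596-16904001) had 14.98, 14.5 and 12.99 FPKM against 23.7, 18.4 and 19.0 in wild type. Wild type replicate 0 was well above the other wild type libraries, and all mutant libraries were below all of them. The log2 fold change was -0.54 ± 0.12 (edgeR adjusted p = 0.00632). All 3 calls held in each of 15 alternatives. Summed over the 3 genes, FPKM was 27.3, 25.7 and 25.7 in cog1-2D and 53.5, 43.0 and 45.6 in wild type.

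Plant B-type cyclin promoters are known for the mitosis-specific activator element, bound by MYB3R factors, so the site nearest the start of each B-type cyclin that has one is shown. The letters CNAACGG and its core AACGG, which the longer motif contains, were searched on both strands from 250 bases before to 50 bases after each gene's RefSeq start in TAIR10.1. CNAACGG was present in 7 of the 8 B-type cyclins among the members, against 5.52% of the 27443 promoters of nuclear protein-coding genes. AACGG was also present in 7 of 8, against 24.7%. The first 3 sites below belong to the measured genes and the other 4 to unmeasured ones, each read 5′ to 3′ in its gene's direction with 10 flanking bases and with CNAACGG or its reverse complement in capitals.
CYCB1;4 chr2:11401133-11401159 (+): ctcttcgtccCCAACGGctagtaataa
CYCB2;1 chr2:7663958-7663984 (+): ccctcatgatCCAACGGttatattcta
CYCB2;2 chr4:16901460-16901486 (+): ccttcatgatCCAACGGtcatcttaat
CYCB1;1 chr4:17624353-17624379 (-): aacaatcagaCCGTTGGggttcattta
CYCB1;2 chr5:1861684-1861710 (-): tggaattgaaCCGTTGGctcctcctcc
CYCB1;3 chr3:3627298-3627324 (-): agttcatcatCCAACGGctagaagtct
CYCB2;3 chr1:7137880-7137906 (-): tggcgttgatCCAACGGctgagatgaa
In the measured genes these sites began at position 26 of CYCB1;4, counting the start as 1, and at -87 and -126 of the B2-type pair. Further matches, not shown, were 1 at position -172 of CYCB2;2, 1 in CYCB1;3 and 4 in CYCB1;2. Both measured B2-type promoters carry 3 copies of the core. The core also lies at -114, -66 and -47 of the unmeasured CYCB2;3, and at -69, -50 and 26 of KRP2, which rose. The 250 bases before each start of the measured B2-type pair are shown here with AACGG or CCGTT in capitals.
CYCB2;1 chr2:7663805-7664054 (+): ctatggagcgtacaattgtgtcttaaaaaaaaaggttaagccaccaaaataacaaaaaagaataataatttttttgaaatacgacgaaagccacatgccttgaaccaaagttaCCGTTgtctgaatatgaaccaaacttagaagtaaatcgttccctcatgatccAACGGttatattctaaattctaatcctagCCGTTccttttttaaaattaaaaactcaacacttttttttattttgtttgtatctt
CYCB2;2 chr4:16901346-16901595 (+): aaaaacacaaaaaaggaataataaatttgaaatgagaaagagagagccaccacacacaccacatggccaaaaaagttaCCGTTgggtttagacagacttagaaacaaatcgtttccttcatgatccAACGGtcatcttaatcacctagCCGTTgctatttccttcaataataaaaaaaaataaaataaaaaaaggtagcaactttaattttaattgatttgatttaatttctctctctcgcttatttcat
Over all measured members, CNAACGG was found in 3 of the 9 that fell, the B-type cyclins just shown, and in 0 of the other 16. The share was 7.12% of all genes lower in cog1-2D and 6.49% of all genes tested. AACGG was found in 6 of those 9 and 4 of those 16, against 26% of all lower genes and 26.7% of all genes tested. These matches are letters in a fixed window, and no test was made of them.

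Of the D-type cyclins, the sensors that link growth signals to the start of S phase, 1 of 4 measured fell. CYCD3;1 (AT4G34160, chr4:16357421-16359565) had 41.8, 36.0 and 40.8 FPKM in cog1-2D and 51.3, 48.0 and 45.7 in wild type. The groups did not overlap. The log2 fold change was -0.30 ± 0.07 (edgeR adjusted p = 0.0130), and the adjusted p was 0.0562 without cog1-2D replicate 1, the only one of 15 alternatives in which the call was lost. Its locus overlaps by 40 bases, on the same strand, AT4G34150, which had 5478 fragments over the 6 libraries and a log2 fold change of -1.23 ± 0.13 (edgeR adjusted p = 0.000121). The part of that neighbour in the difference was not tested. AT5G67260 (CYCD3;2), the most highly expressed member, had 127, 109 and 118 FPKM in cog1-2D and 130, 123 and 123 in wild type. Its groups overlapped and it did not pass (-0.09 ± 0.07 on the log2 scale). AT1G70210 (CYCD1;1) had 19.8, 18.4 and 18.2 FPKM against 20.9, 21.8 and 20.3, without overlap, and did not pass either (log2 fold change -0.17 ± 0.06, edgeR adjusted p = 0.0648). The last of the class, AT4G37630, ranged from 6.03 to 9.69 FPKM and had a log2 fold change of -0.27 ± 0.14.

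Among the kinase inhibitors, KRP2 (AT3G50630, chr3:18800306-18801595), which binds complexes of the A-type kinase with D-type cyclins, had 25.6, 27.1 and 24.8 FPKM in cog1-2D and 19.9, 19.5 and 20.3 in wild type. The wild type libraries were within 1 FPKM of each other and all lay below the mutant libraries. It rose 1.29-fold, a log2 fold change of 0.37 ± 0.08 (edgeR adjusted p = 0.00621). KRP4 had 40.2, 41.1 and 36.0 FPKM against 37.9, 35.6 and 33.3, with overlap, and did not pass (0.15 ± 0.07 on the log2 scale). KRP5 had 6.61, 7.00 and 5.28 against 7.89, 8.41 and 5.55, also with overlap, and a log2 fold change of -0.22 ± 0.20. KRP2 and the A-type kinase gene were the only members that rose.

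No gene of the E2F group passed, nor did WEE1, a kinase that restrains CDKs when DNA is damaged. E2FC, known as a repressing E2F, had 16.7, 13.6 and 14.4 FPKM in cog1-2D and 16.9, 16.2 and 14.9 in wild type. E2FA, an activating E2F, had 6.57, 5.77 and 7.45 against 8.65, 6.40 and 5.30. Both pairs of groups overlapped, with log2 fold changes of -0.11 ± 0.10 and -0.05 ± 0.18. The other activating factor, E2FB, and WEE1 had log2 fold changes of -0.12 ± 0.11 and -0.22 ± 0.15.

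The MCM genes encode the ring helicase that opens DNA at replication forks, and PCNA is the sliding clamp of the replicative polymerases. MCM2 (AT1G44900, chr1:16970214-16974753) had 16.8, 15.5 and 14.2 FPKM in cog1-2D and 27.3, 21.3 and 20.6 in wild type. The groups were separate, with wild type replicate 0 high. It fell, with a log2 fold change of -0.57 ± 0.12 (edgeR adjusted p = 0.00457). MCM7 (AT4G02060, chr4:900636-905591), also known as PROLIFERA, had 27.5, 24.4 and 25.5 FPKM against 34.0, 29.7 and 28.4. Its groups were separate by less than 1 FPKM. The log2 fold change was -0.26 ± 0.08 (edgeR adjusted p = 0.0382). This was the weakest of the 11 calls by adjusted p and was lost in 6 of 15 alternatives: the adjusted p was 0.141 and 0.0972 without cog1-2D replicates 1 and 2, 0.101 without wild type replicate 0, 0.0565 in DESeq2 and 0.0628 in limma on log2 FPKM with either pseudocount. PCNA1 had 42.7, 39.6 and 36.7 FPKM against 54.97, 45.7 and 43.0 and did not pass (log2 fold change -0.28 ± 0.10, edgeR adjusted p = 0.0599). Its highest mutant library almost met its lowest wild type one. It passed in 3 of 15 alternatives, with an adjusted p of 0.0332 without wild type replicate 2, 0.00809 with no filter on low counts and 0.0119 with a replicate block. Over all 15 the adjusted p reached 0.178, in a fit that left out 1 library.

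E2F sites are a known feature of MCM promoters. The letters TTTCCCGC, TTTCGCGC, TTTGCCGC and TTTGGCGC, searched on both strands in the same window, were present in 5 of the 8 MCM and PCNA genes among the members, against 1.76% of all 27443 promoters. The sites are shown with the motif, or its reverse complement, in capitals, and only the first belongs to a measured gene.
MCM2 chr1:16970190-16970217 (+): ggcgccaataTTTCCCGCctaatcgacg
MCM3 chr5:18773859-18773886 (-): gaaatcaaacGCGCCAAAcaagcgcgta
MCM4 chr2:7130747-7130774 (-): agtaataatgGCGCCAAAatcaagtgaa
MCM5 chr2:3527502-3527529 (-): ggcccatcagTTTCCCGCcacattgttc
MCM6 chr5:18010696-18010723 (-): atactttttaGCGGGAAAatgttagagg
The motif of MCM2 began at position -14. Of the 9 members that fell, MCM2 was the only one with an E2F motif in the window. The motif was also found in RBR1 and in AT3G50070 (CYCD3;3), neither of them measured.

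CCS52A1 (AT4G22910, chr4:12012408-12016012), an APC/C activator that promotes exit from division into endoreduplication, had 10.1, 9.82 and 11.4 FPKM in cog1-2D and 14.1, 11.9 and 14.4 in wild type. The lowest wild type library, replicate 1, lay just above the highest mutant library. The log2 fold change was -0.37 ± 0.10 (edgeR adjusted p = 0.0204). The call was lost in 4 of 15 alternatives, with an adjusted p of 0.0619 and 0.0813 without cog1-2D replicates 0 and 1, and of 0.0534 and 0.0630 without wild type replicates 0 and 2.

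Wild type replicate 0 was the highest of the 6 libraries for 14 of the 25 measured members, and for 8 of the 9 that fell. The exception among the 9 was CCS52A1, where wild type replicate 2 was highest. The summed FPKM of these 9 genes was 209, 178 and 180 in wild type and 144, 131 and 137 in cog1-2D. In the same library, root meristem markers summed to 64.7 FPKM, against 53.7 and 55.3 in the other wild type libraries, and the green tissue marker LHCB1.3 stood at 19100 against 24540 and 23410. Their part in the results was not tested. Wild type replicate 1 had the fewest genes with a value above 0, 13123 against 15366 to 16433 in the rest.

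**Figure D3:**
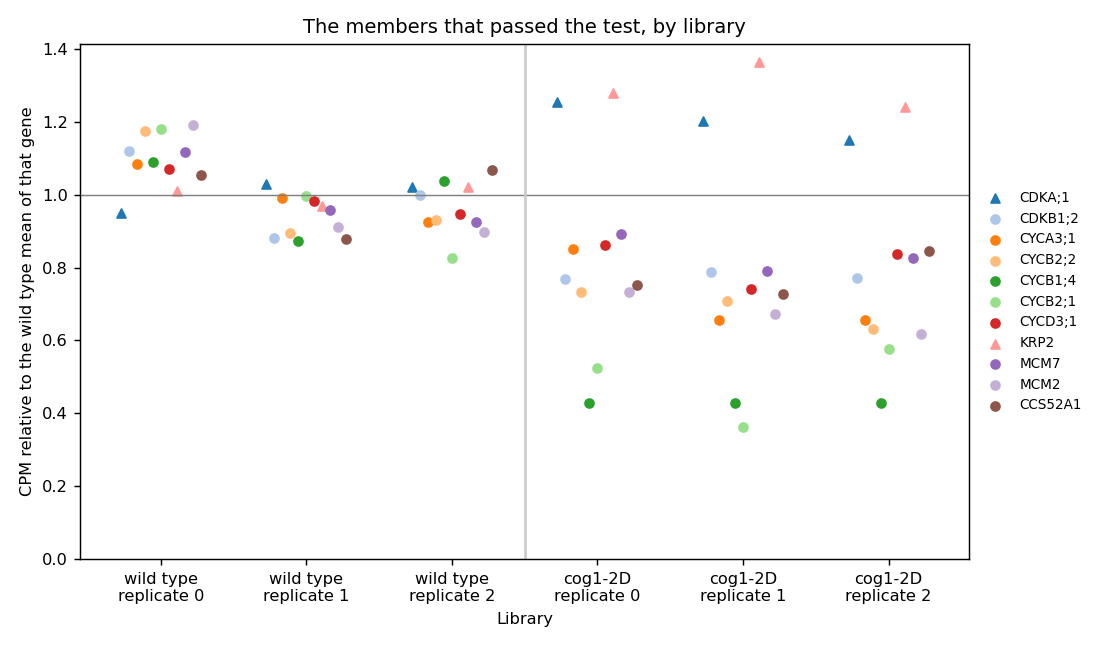
Counts scaled to a common library size (CPM) of the 11 members that passed the test, each divided by the gene's wild type mean (vertical axis, 1 is the wild type mean), in the 3 cog1-2D and 3 wild type libraries. Triangles are the 2 members higher in cog1-2D and circles the 9 lower ones. Wild type replicate 0 holds the highest value of all 6 libraries for 8 of the 9 lower members.

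Other genes of the pathway were read from 86 listed loci, 40 of them on the minus strand, of which 45 were tested. In this set 4 genes rose, 15 fell and 26 did not pass, with 32 of 45 below 0 and a median log2 fold change of -0.21. Over all tested genes 16.3% rose and 20% fell, 36.3% in all. The number lower was 9 without cog1-2D replicate 1, without cog1-2D replicate 2, without wild type replicate 0 and in DESeq2. Among the 13 tested genes for licensing and firing of replication origins, 6 fell, none rose and all 13 had a log2 fold change below 0 (median -0.35). For ORC1A and ORC6 it was within 1 SE of 0 (-0.02 ± 0.34 and -0.14 ± 0.16), with overlapping groups. In ORC6 only wild type replicate 0 was above every mutant library. The direction of uncalled listed genes was not followed through the alternatives. PSF3, a subunit of the GINS complex that activates the MCM helicase, had 3.43, 3.11 and 4.20 FPKM in cog1-2D and 18.9, 21.5 and 20.3 in wild type. Its difference was the largest of all listed cell cycle genes, a log2 fold change of -2.55 ± 0.14, and its locus overlaps by 252 bases AT1G19070, which had 7 fragments. PSF1 of the same complex had 9.17, 10.4 and 10.6 FPKM against 16.2, 17.9 and 16.3. Its log2 fold change was -0.83 ± 0.09 (edgeR adjusted p = 0.000116). The licensing factor gene CDT1B also fell, by 0.48 ± 0.08 on the log2 scale. For each of these 3 genes every mutant library was below every wild type library. The GINS subunit gene PSF2 lies on the minus strand, had 0 fragments and could not be read. SLD5, also of that complex, had a log2 fold change of -0.46 ± 0.14 (edgeR adjusted p = 0.0319). This call was lost without any 1 of cog1-2D replicates 0, 1 and 2 (adjusted p 0.0901, 0.0884 and 0.0548), without wild type replicates 0 and 2 (0.0770 and 0.1) and in DESeq2 (0.0968), and a stretch of 560 bases of the gene is 95.9 to 97.7% identical to other loci. The calls of CDT1A and CDC45 were lost without cog1-2D replicate 1 (adjusted p 0.103 and 0.0653), without cog1-2D replicate 2 (0.0572 and 0.0692), without wild type replicate 0 (0.0740 and 0.0601) and in DESeq2 (0.0860 and 0.115), and that of CDT1A also without cog1-2D replicate 0 (0.0584).

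In the mitosis list 3 of 4 tested genes fell. MAD2, of the spindle checkpoint, had 22.9, 23.4 and 25.3 FPKM in cog1-2D and 60.7, 54.5 and 56.0 in wild type. Every wild type library held more than every mutant library by a wide margin, with a log2 fold change of -1.26 ± 0.07. The kinesin gene PAKRP1L, of the phragmoplast that builds the new cell wall, and the Aurora kinase gene AUR1 fell by 0.24 ± 0.07 and 0.22 ± 0.06 on the log2 scale. The call of the kinesin was lost in 8 of 15 alternatives, without cog1-2D replicates 0, 1 and 2 and wild type replicates 0 and 2 and in DESeq2 and both limma fits (adjusted p 0.0521 to 0.0776). That of the Aurora kinase was lost in 5, without cog1-2D replicates 0 and 1 and wild type replicates 0 and 2 (0.0558, 0.105, 0.0532 and 0.0778) and in DESeq2 (0.136).

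Of the CDK-activating kinases, which phosphorylate other CDKs, CDKD;1 fell and CDKD;2 rose. The first had 2.53, 2.06 and 2.01 FPKM in cog1-2D and 5.96, 4.76 and 4.73 in wild type, a log2 fold change of -1.24 ± 0.17 (edgeR adjusted p = 0.000551). The second had 21.9, 24.2 and 23.3 against 15.4, 17.5 and 17.4, a log2 fold change of 0.46 ± 0.08 (edgeR adjusted p = 0.00182). The pair thus moved in opposite directions, each without overlap. Of the same list, CDKF;1 did not pass (log2 fold change -0.02 ± 0.06) and the minus-strand gene CDKD;3 was unmeasured. The cyclin AT1G47210 (CYCA3;2) passed with a log2 fold change of -0.21 ± 0.07 (edgeR adjusted p = 0.0372), although its mean deposited FPKM was 35.7 in cog1-2D and 35.3 in wild type. That call was lost in 8 of 15 alternatives, without cog1-2D replicates 1 and 2 and wild type replicates 0 and 1 (adjusted p 0.143, 0.0765, 0.105 and 0.0678) and in 4 other settings, the highest being 0.887 in limma on log2 FPKM, where the log2 fold change was 0.01. Among regulators of transcription, DEL1, an atypical E2F that represses endoreduplication, had a log2 fold change of -0.59 ± 0.11. The MYB3R3 gene, whose product is known as a repressor of mitotic genes through the element shown above, rose by 0.46 ± 0.09 on the log2 scale, to 13.8 ± 0.613 from 10.1 ± 0.934 FPKM (SD, n = 3 per genotype). Its relatives MYB3R1 and MYB3R4 did not pass (log2 fold changes 0.05 ± 0.06 and -0.225 ± 0.082), and the minus-strand MYB3R5 had 0 fragments. The part of these factors in the results was not tested.

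APC/C subunit genes went both ways: APC6 had a log2 fold change of -0.61 ± 0.09, while APC11 and APC1 had 0.49 ± 0.11 and 0.31 ± 0.08. Of the 8 genes tested in their list, which also holds other activators and APC/C inhibitors, 5 did not pass. The APC11 call was lost in DESeq2 (adjusted p = 0.0600). Genes on the opposite strand overlap APC1 (863 bases), APC11 (135 bases) and APC6 (108 bases), and other listed genes such as DEL1 (307 bases) and AUR1 (290 bases). These neighbours lie on the minus strand, so their counts do not show their level, and their part in the results was not tested. RNR1, the large subunit of ribonucleotide reductase, which supplies deoxynucleotides, was the 1 gene of 5 in its list that fell, with -0.30 ± 0.08 on the log2 scale. Its adjusted p was 0.0187 in edgeR and 0.0795 and 0.0671 without cog1-2D replicates 1 and 2. SKP2A, an F-box protein gene of the G1 to S step, had a log2 fold change of -0.52 ± 0.11 (edgeR adjusted p = 0.00603). Neither of the 2 tested SIAMESE-related inhibitor genes passed, the smaller p belonging to AT5G02420 (log2 fold change -0.35 ± 0.15). The 5 replication-dependent histone H3.1 genes are all minus-strand and were unmeasured.

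**Figure D4:**
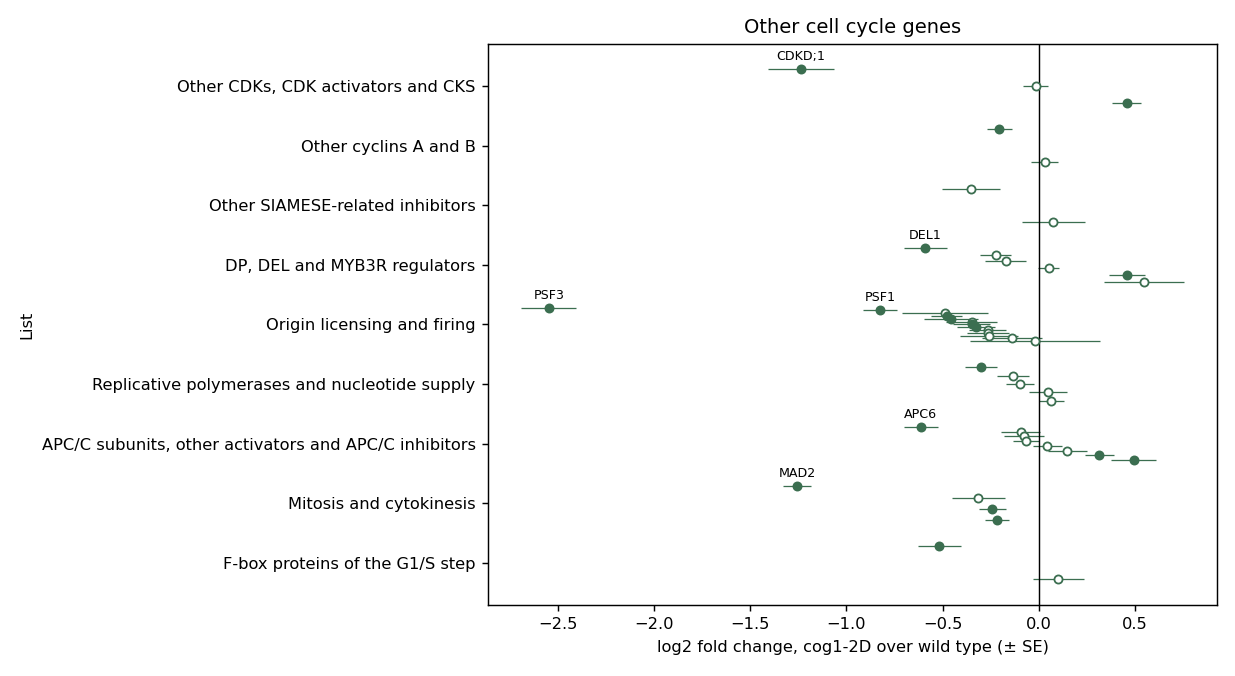
Log2 fold change, cog1-2D relative to wild type (horizontal axis), of the 45 tested cell cycle genes outside the 54, one point per gene in a row per list, with bars of 1 standard error. Filled points passed the test at an adjusted p under 0.05 and open points did not. All 13 origin licensing and firing genes lie left of 0, with PSF3 at -2.55 and with ORC1A and ORC6 within 1 standard error of 0.

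Markers of dividing and other tissues were read beside these genes. Of the 6 root meristem markers, all tested, 1 fell: SCR, with a log2 fold change of -0.30 ± 0.09, whose call was lost without cog1-2D replicates 1 and 2 and wild type replicate 0 (adjusted p 0.0852, 0.0873 and 0.0629). The list summed to 46.9 to 53.2 FPKM in cog1-2D and 53.7 to 64.7 in wild type, so that the ranges did not overlap. SCR held the largest part of the sum, with a mean of 23.7 FPKM in cog1-2D and 29.1 in wild type. The other 5 markers did not pass. The log2 fold change was below 0 in 5 of the 6, the exception being WOX5 at 0.26 ± 0.33. Shoot meristem and primordium markers were largely unmeasured, with 8 of 10 on the minus strand and STM, CLV3, WUS, CUC2 and AN3 at 0 in all libraries. The 2 tested did not pass, and the list summed to 24.3 to 26.2 FPKM in cog1-2D and 25.4 to 27.7 in wild type. Neither of the 2 tested stomatal lineage markers passed, with sums of 14.1 to 14.9 and 14.2 to 17.0 and BASL at 0. Trichome markers summed to 12.5 to 13.3 and 15.1 to 15.7, with GL1 at 0, and GL2 was the 1 of 3 tested that fell (-0.28 ± 0.09), a call lost in 9 of 15 alternatives, among them those without cog1-2D replicates 0, 1 and 2 and wild type replicate 2 (adjusted p 0.0855, 0.0849, 0.126 and 0.134). Of the 4 green tissue markers, 3 lie on the minus strand and are not usable, and LHCB1.3, which makes up nearly all of the sum, ranged from 23250 to 24440 FPKM in cog1-2D and from 19100 to 24540 in wild type and did not pass (0.09 ± 0.09 on the log2 scale). Root tissue markers summed to 84.3 to 92.6 and 92.8 to 96.6 with COBL9 at 0, and of 4 tested 3 fell and 1 rose. HKT1, EXPA7 and PRP3 fell by 1.47 ± 0.15, 1.01 ± 0.11 and 0.93 ± 0.11 on the log2 scale and TIP4;1 rose by 0.77 ± 0.07. BASL, GL1 and COBL9 lie on the minus strand, so their 0 does not show absence. The minus strand holds 4 of the 6 stomatal, 2 of the 5 trichome and 2 of the 6 root tissue markers, which add almost nothing to the sums. No seed storage marker was tested, but CRU3 had 369 fragments in cog1-2D replicate 2 against 0 to 10 in every other library. The part of these tissues in the results on cell cycle genes was not tested.

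The authors' deposited table of 3124 called genes lists 9 of the 25 measured members, 36%, against 29.6% of all tested genes. In the authors' deposited table the log2 fold change was -1.21 for CYCB1;4 and -0.57 for MCM2, each with a q-value of 0.000349. It was 0.27 for the A-type kinase gene and 0.38 for KRP2 in the authors' deposited table, with q-values of 0.0368 and 0.0179. All 9 had the same direction there as in edgeR, and of the 11 called by edgeR only CYCD3;1 and MCM7 are not listed.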

How the data were processed

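RNA extracted with a NucleoSpin kit went into TruSeq Stranded mRNA libraries, per the labels' protocols. Trimmomatic 0.36, HISAT2 2.1.0, Cufflinks 2.2.1 and Cuffdiff were used on TAIR10, per the submitters' processing notes. The sources used here give neither their roles nor the annotation nor the strand setting, and genes on the minus strand are almost without fragments in every library. The deposited table gives, per the file headers, the expected counts of fragments, unscaled, and FPKM, which is scaled for gene length and library. Among the expected counts as deposited, 98.1% were whole within 1e-06. A second deposited table gives the authors' calls with log2 fold changes and q-values from Cuffdiff, per the file headers.

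The expected counts, rounded, were tested with edgeR 4.0.16 in R 4.3.3 (filterByExpr, TMM, quasi-likelihood F-test, genotype as the only term, Benjamini-Hochberg adjustment at 0.05 over 10347 genes). The SE of a log2 fold change is its size over the square root of F. The common biological coefficient of variation was 0.0762. Cell cycle members were read from this fit, and no test was made over the list. Groups were said not to overlap on CPM with TMM factors. A member counted as measured from 60 fragments over 6 libraries, and 120 gave the same 25.

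All 54 members were matched to the RefSeq reference TAIR10.1 by locus, as were 32225 of 33617 genes. Coordinates and sequences are of that reference. Copies of at least 95% identity over 100 bases were searched with blastn 2.17.0, and none was found for a measured member. Gene names are those paired with the loci in the lists used here.

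Members, gene lists, tests and alternatives were chosen with earlier results of these data known. Values per library are given for each called member and up to 2 uncalled ones per role with the highest FPKM. Of each pathway list up to 4 called genes with the largest change are named, or the 1 with the smallest p, and up to 2 called genes of each marker list. EXPA7, PRP3 and LHCB1.3 were named outside this rule, after their values were seen. Genes named to show limits, such as ORC1A, ORC6, CDKF;1, MYB3R1 and MYB3R4, were also outside it. Alternatives were RLE and upper-quartile factors, no filter, a mean of at least 50 counts, plus-strand genes only, a replicate block, leaving out each library, DESeq2 1.42.0, and limma 3.58.1 on log2 FPKM (pseudocount 1 or 0.1, mean FPKM from 0.5 up). Steps in edgeR were tested on simulated counts. Tables and plots used pandas 2.3.3, matplotlib 3.10.9 and numpy 2.4.6 in Python 3.11.15.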

Additional observations from a re-analysis of the deposited data

How the results depend on the processing

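Of the 11 called members, 6 kept their call in all 15 alternatives: CDKA;1, CYCB1;4, CYCB2;1, CYCB2;2, KRP2 and MCM2. The number of lower members ran from 4 to 9 when 1 library was left out, and the number of lower genes in the other pathway lists from 9 to 14, while higher members stayed at 2. DESeq2 called 9 lower genes in the other pathway lists. AT1G80370 (CYCA2;4), which did not pass, had a log2 fold change of 0.0094 with upper-quartile factors, 0.014 and 0.0155 in limma with pseudocounts of 1 and 0.1, and -0.10 to 0.16 over the fits that left out 1 library, the highest without wild type replicate 0, against -0.01 in edgeR. E2FA, which did not pass either, had -0.20 to 0.17 over those fits, with 0.04 without cog1-2D replicate 1 and 0.17 without wild type replicate 0, against -0.05. The cause of these shifts was not tested. With 3 libraries per genotype and minus-strand genes unmeasured, most B-type cyclins and most MCM genes could not be read. CYCA2;1 gave no value under the filter of 50 counts on average.

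Replicate numbers are not said to mark a shared batch, and deviations of same-numbered libraries from their group means correlated at -0.01, -0.02 and 0.11 for numbers 0, 1 and 2, so the numbers were not taken as pairs. Not every library correlated best with its own number. With the replicate block, 1863 genes were higher and 2230 lower, against 1686 and 2066 without it, and members lower numbered 10 in place of 9, the gain being PCNA1 (adjusted p = 0.0119). In the other pathway lists the block gave 5 higher and 17 lower, and among the marker genes it ended the call of GL2 (adjusted p = 0.0543).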
